A study of Drosophila melanogaster with 3 samples.

Results

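The 8 genes described here are named in work on the fly mushroom body and were taken by symbol: ey, toy, dac, Mef2, zfh2, rn, prt and mub. All 8 were found among the 17824 genes of the feature lists. Of these, 6 encode transcription factors. The other 2 do not: prt (portabella) encodes a protein of the vesicular transporter family, and mub (mushroom-body expressed) encodes an RNA-binding protein with KH domains. The group as a whole is therefore called mushroom body genes below, and transcription factor is used only of the 6.

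The mushroom body is the part of the insect brain in which odors are associated with reward or punishment. Its intrinsic neurons are the Kenyon cells (KCs), which are born in sequence as γ, α′/β′ and α/β neurons and send axons into separate lobes. Eyeless (ey) and Twin of eyeless (toy) are the fly homologs of Pax6, and together with Dachshund (dac) they are known for building the eye and the mushroom body. Mef2 is a MADS-box factor of muscle and of KCs. Zfh2 is a large zinc finger homeodomain protein, and Rotund (rn) is a zinc finger protein known from leg and antenna patterning.

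Cells came from female central brains without the optic lobes, in 3 libraries of 10x Genomics transcript-end counts, in which each molecule is counted as 1 unique molecular identifier (UMI). Library 1 pooled flies homozygous for dSERT16, a deletion allele of the serotonin transporter gene dSERT, with flies of its matched control line dSERT4, which has a small deletion of its own, on the day of eclosion (day 0). Library 2 pooled dSERT-TMKO flies, a knockout allele, with WT flies on day 0. Library 3 pooled dSERT-TMKO and WT flies with WT flies fed citalopram (CIT) or vehicle (VEH), at day 4 to 6. All flies carried Mef2(P247)-gal4 driving a nuclear GFP by which cells were sorted. Within each arm 1 copy of chromosome 3 came from several wild-type strains, and the other copy was common to the flies. In the CIT and VEH flies 1 copy of chromosome 2 varied by strain as well. The members rn, prt and mub lie on chromosome 3, and dac and Mef2 on chromosome 2. This driver is known to label α/β and γ better than α′/β′ cells, and because it reads a Mef2 enhancer, Mef2 itself was not read as a result outside KCs. No map from cells to flies was used, so each library is 1 sample. Genotypes and drugs were not compared, and age, allele and library cannot be told apart.

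The libraries held 3544, 9404 and 3089 barcodes and between 13183480 and 61833329 UMIs. After filtering, 14787 cells were clustered, with median UMIs of 3330, 6508 and 7146 per cell. Cells named Kenyon-like by markers numbered 3019 (91.7%), 2179 (25.6%) and 2929 (98.6%). Library 2 went against its label, since 5859 of its 8523 cells were glia-like and only these 25.6% were Kenyon-like. Libraries shared at most 11 cell barcodes. None of the 8 genes was used to cluster the cells or to name a cluster. KCs fell into 1878, 1427 and 1499 γ cells, 951, 607 and 1313 α/β cells, and 190, 145 and 117 α′/β′ cells. The α/β class of library 3 includes a cluster of 130 cells whose 10 leading genes hold 1 glial marker (Gs2) and no α/β marker. Without it the library 3 α/β level of rn fell from 294 to 14.4 CPM, that of zfh2 from 31.8 to 15.8 CPM and the summed glial markers from 204 to 40.5 CPM, and these values are repeated beside the results they touch.

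Members were placed on release 6 of the genome (BDGP6). Of the 8, 3 lie on chromosome 4, the small dot chromosome: zfh2 (501810 to 540874, plus strand), ey (697689 to 721173, plus strand) and toy (989725 to 1007922, plus strand). The gene rn spans 7272617 to 7309629 on the minus strand of 3R, where the long noncoding RNA CR44333 is annotated on the same strand, so reads in their shared part could be assigned to neither or either. The gene prt is short, from 23696372 to 23699027 on the minus strand of 3R. The gene mub spans 87915 bases of 3L, from 21844788 to 21932702 on the plus strand. The gene dac runs from 16466512 to 16485998 on the minus strand of 2L, and Mef2 from 9913496 to 9958858 on the minus strand of 2R. Reads were counted with the default settings of Cell Ranger 7.0.0, which include intronic reads, so UMIs can come from anywhere in these spans.

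Levels are CPM, the UMIs of a gene scaled to a fixed total of UMIs of its cell class in 1 library, and because tags come from transcript ends they are not compared between genes. Intervals on levels and shares are exact 95% intervals that cover counting error only. Subtypes were compared over the 3 libraries with edgeR's quasi-likelihood test on summed counts, with the library as a block and Benjamini-Hochberg adjustment over all genes tested. Calls needed both a fold of 1.5 or more and an adjusted p no higher than 0.05. The libraries are separate pools of animals and differ in age and genotype, and cells of 1 library are not replicates. Folds within a library are given as log2 ratios of CPM with their mean ± SD over libraries.

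Between γ and α/β cells 3 of the 8 genes were called, against 11.8% of the 6810 genes tested. The gene zfh2 was higher in γ cells, while rn and dac were higher in α/β cells. Between γ and α′/β′ cells 4 of the 8 were called, against 11.2% of genes. Here Mef2, zfh2 and prt were higher in γ cells and rn was lower. Between α/β and α′/β′ cells 3 of the 8 were called, against 16.5% of genes, with Mef2, dac and rn all higher in α/β cells. Without the 130-cell cluster 4, 4 and 3 members were called, prt being added between γ and α/β cells and zfh2 taking the place of rn between α/β and α′/β′ cells (log2 -1.46, edgeR adjusted p = 0.0139). The median absolute log2 difference of the 8 genes was 0.51, 0.70 and 0.62 in these comparisons, beside 0.22, 0.27 and 0.31 over all genes tested.

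**Figure D1:**
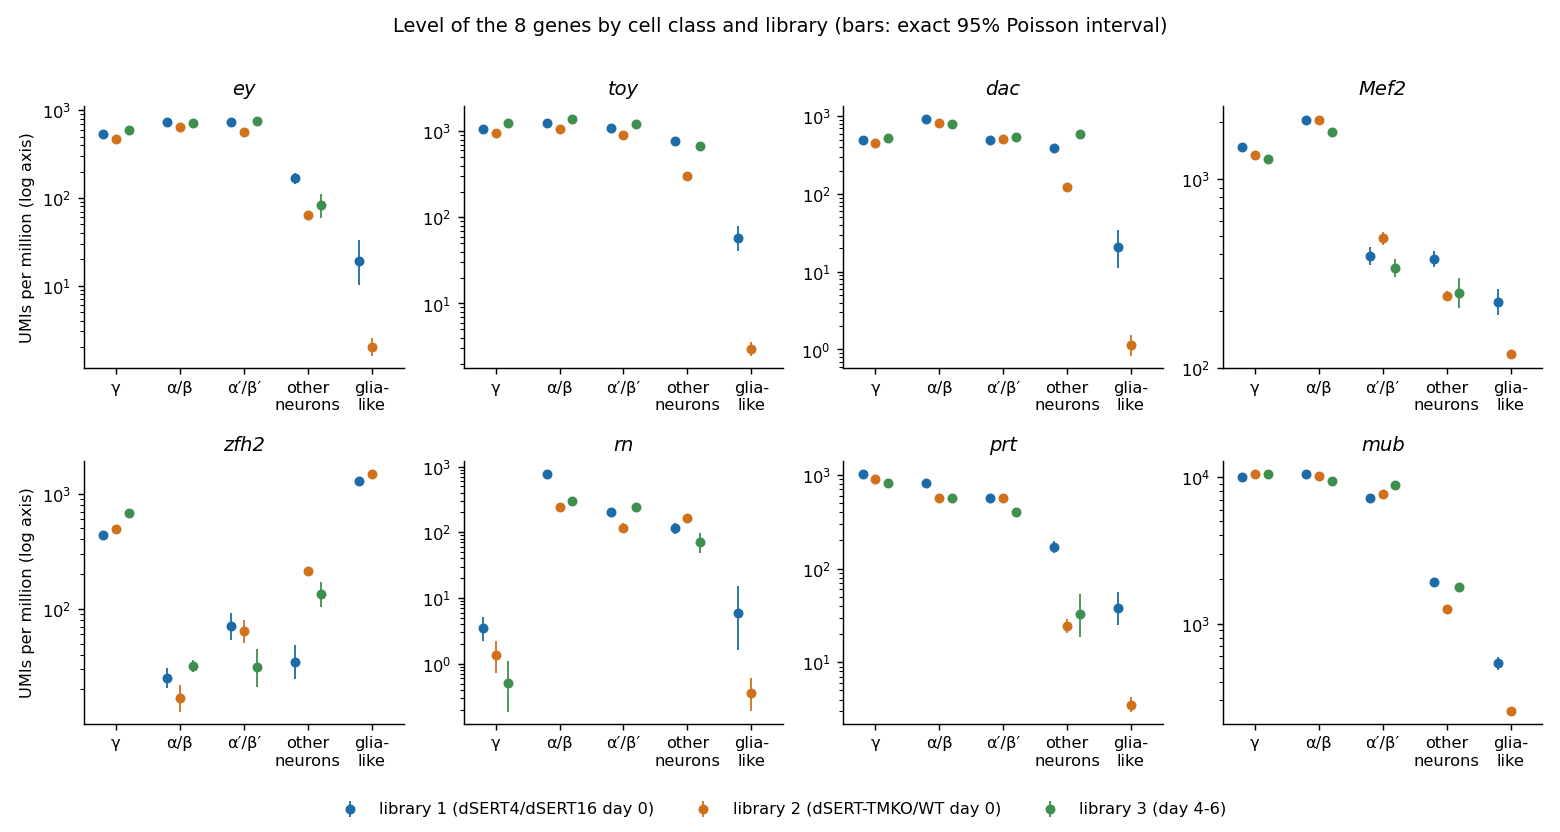
Level of each gene in CPM (log axis) in γ, α/β and α′/β′ Kenyon cells, other neurons and glia-like cells. Points are libraries and bars are exact 95% Poisson intervals. The gene zfh2 is high in γ and glia-like cells, rn is near 1 in γ cells and above 100 in both other Kenyon subtypes, and toy lies between 919 and 1406 in every Kenyon subtype.

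Neither Pax6 homolog was called in any subtype comparison. In γ cells ey was at 540, 466 and 595 CPM in libraries 1, 2 and 3. In α/β cells it was at 734, 644 and 719 CPM, and in α′/β′ cells at 732, 561 and 760 CPM. So ey was lowest in γ cells in every library, and the other subtypes exchanged places. The γ over α/β log2 ratio was -0.39 ± 0.11 (SD, n = 3 libraries), with an edgeR adjusted p of 0.00981 that passed the test while the fold stayed under 1.5. Levels of toy were 1069, 947 and 1242 CPM in γ, 1258, 1055 and 1406 in α/β, and 1098, 919 and 1218 in α′/β′ cells. The gene toy was highest in α/β cells in every library, but no fold of toy between subtypes reached 1.5. Its γ over α/β log2 ratio was -0.19 ± 0.04 (SD, n = 3), with an edgeR adjusted p of 0.0977.

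Dachshund, a transcriptional cofactor that acts with Pax6 and Sine oculis in the eye, was an α/β-high gene. It was at 923, 818 and 788 CPM in α/β cells, above every γ value (491, 455 and 533) and every α′/β′ value (491, 510 and 538). The γ and α′/β′ values overlapped. The log2 ratio of γ over α/β was -0.77 ± 0.19 (SD, n = 3, edgeR adjusted p = 6.9e-04), and that of α/β over α′/β′ was 0.71 ± 0.18 (adjusted p = 5.5e-04). Between γ and α′/β′ cells the adjusted p of dac was 0.888.

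Mef2 separated α′/β′ cells from the other subtypes. It was at 2048, 2055 and 1778 CPM in α/β cells, at 1479, 1338 and 1269 in γ cells, and at 390, 484 and 338 in α′/β′ cells. No α′/β′ value came near the others. The log2 ratio over α′/β′ was 1.77 ± 0.26 for γ (SD, n = 3, edgeR adjusted p = 3.0e-05) and 2.29 ± 0.18 for α/β (adjusted p = 3.4e-06). The order α/β, γ, α′/β′ held in all 3 libraries. The γ over α/β difference of -0.53 ± 0.08 passed on p (edgeR adjusted p = 0.00749) but not on the fold. The sort gate read a Mef2 enhancer, and the part of the sort in these levels was not tested.

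The gene zfh2 was a γ gene among KCs. Its level was 438, 495 and 685 CPM in γ cells, but 25.3, 16.8 and 31.8 CPM in α/β cells and 70.9, 63.6 and 31.4 CPM in α′/β′ cells. The γ level was 17.3, 29.4 and 21.5 times that of α/β cells (43.3 times in library 3 without the 130-cell cluster), a log2 ratio of 4.47 ± 0.38 (SD, n = 3, edgeR adjusted p = 2.6e-05). Over α′/β′ cells the ratio was 3.34 ± 0.97 (adjusted p = 3.5e-04). The call over α′/β′ cells was lost when predicted doublets were kept (log2 1.84, edgeR adjusted p = 0.131) or when cells were assigned 1 by 1 from marker UMIs (0.72, adjusted p = 0.246). Of the cells so assigned to α′/β′, 59.2%, 43.3% and 31.2% were in α′/β′ clusters, whereas for γ the shares were 99.2%, 97.7% and 98.3%. The γ and α′/β′ marker lists share trio and mamo, and the part of this in the loss was not tested. Glia-like cells also held much zfh2, at 1294 and 1489 CPM in libraries 1 and 2. The 9 glial markers summed to 194, 683 and 61.8 CPM in γ cells and to 158, 708 and 204 CPM in α/β cells, against 19388 and 36500 CPM in glia-like cells. Without the 130-cell cluster the α/β sum of library 3 was 40.5 CPM, below that of γ cells. The part of glial RNA in the γ level of zfh2 was not tested. Thinned to 1000 UMIs a cell, 30.4%, 30.1% and 41.8% of γ cells held a zfh2 UMI, against 70.4% and 70.8% of glia-like cells.

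The gene rn showed the widest range. In γ cells only 23, 14 and 6 UMIs were counted, or 3.46, 1.34 and 0.51 CPM. In α/β cells it was at 760, 247 and 294 CPM, and in α′/β′ cells at 202, 118 and 240 CPM. The γ over α/β log2 ratio was -8.16 ± 0.89 (SD, n = 3, edgeR adjusted p = 6.5e-06) and the γ over α′/β′ ratio was -7.07 ± 1.60 (adjusted p = 4.8e-05). The ratio of α/β over α′/β′ was positive in 3 of 3 libraries, at 1.09 ± 0.81, with an edgeR adjusted p of 0.0243. That call was lost without library 1 (log2 0.75, adjusted p = 0.187), without library 2 (1.17, adjusted p = 0.115), with doublets kept (1.49, adjusted p = 0.0884) and in DESeq2 (1.09, adjusted p = 0.161). Without the 130-cell cluster of library 3 the difference fell to 0.09 (edgeR adjusted p = 0.968), and the library 3 level of α/β cells, 14.4 CPM, was then below that of α′/β′ cells. That cluster held 95.7% of the α/β rn UMIs of library 3, so this fall follows from leaving it out and is no check of the call. At resolution 0.6 a cluster of 110 cells of library 3 was still named α/β and held rn at 2696 CPM.

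The transporter-like prt was highest in γ cells in every library, at 1016, 902 and 814 CPM. It was at 811, 569 and 563 CPM in α/β cells and at 564, 561 and 402 CPM in α′/β′ cells. The γ over α′/β′ log2 ratio was 0.85 ± 0.17 (SD, n = 3, edgeR adjusted p = 0.00131), a call lost on the fold when cells were assigned 1 by 1 from marker UMIs (0.46, adjusted p = 0.0253). The part of the shared γ and α′/β′ markers in that loss was not tested. Over α/β cells it was 0.51 ± 0.17 (edgeR adjusted p = 0.017), under the fold of 1.5. With the 130-cell cluster left out the γ over α/β difference was called (log2 0.63, adjusted p = 0.00501).

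The RNA-binding protein gene mub was not called between subtypes either. It was at 9987, 10556 and 10490 CPM in γ cells, at 10511, 10227 and 9472 CPM in α/β cells, and at 7229, 7659 and 8862 CPM in α′/β′ cells. Every α′/β′ value lay below the others. The γ over α′/β′ ratio of 0.39 ± 0.13 (SD, n = 3) passed on p (edgeR adjusted p = 0.00811) but not on the fold.

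**Figure D2:**
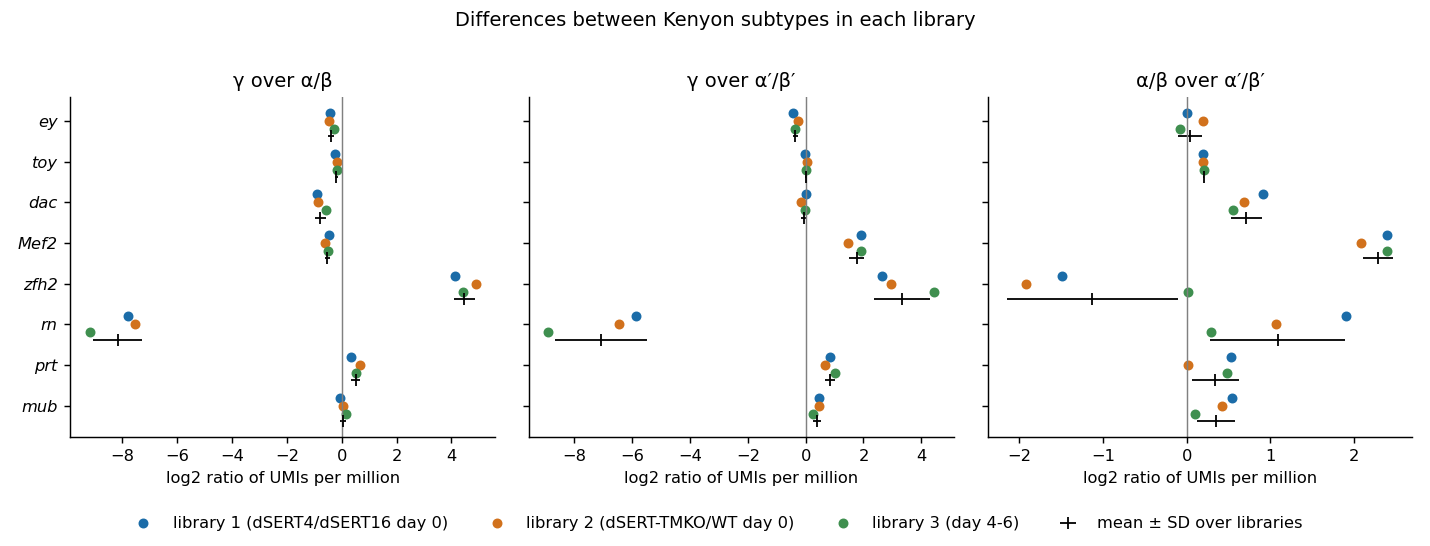
Log2 ratio of CPM between Kenyon subtypes, 1 point per library, with the mean ± SD over 3 libraries as a black bar. The points of zfh2, rn and Mef2 lie farthest from 0, the zfh2 ratio of γ over α/β averages 4.47, and mub is the gene whose γ over α/β points lie on both sides of 0.

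Class averages hide how the genes are spread over single cells, and rn was the extreme case. In α/β cells rn was close to all or none. Cells with at least 5 rn UMIs numbered 134 of 951 (14.1%, interval 11.9 to 16.5%), 43 of 607 (7.08%, 5.17 to 9.42%) and 111 of 1313 (8.45%, 7.01 to 10.1%). Only 11, 4 and 9 cells held 1 to 4 UMIs, and all others held none. In library 3 nearly all of the cells with at least 5 UMIs were in the 130-cell cluster, and outside it there were 3 of 1183 (0.254%). A gene drawn at random from each cell's UMIs at the class level would be at 0 in 10.8%, 29.3% and 20.6% of cells, whereas 84.8%, 92.3% and 90.9% were at 0. In α′/β′ cells the pattern differed, with 1 to 4 UMIs in most cells that held any and at least 5 in only 1, 7 and 9 cells. Thinned to 1000 UMIs a cell, 14.6%, 7.08% and 8.15% of α/β cells kept an rn UMI, against 0.373%, 0.0701% and 0% of γ cells. The 0% of library 3 was 0 of 1499 cells, with an interval of 0 to 0.246%. Without thinning 15.2%, 7.74% and 9.14% of α/β cells and 0.852%, 0.561% and 0.4% of γ cells held one, at median depths of 3488, 5526 and 6111 UMIs in α/β cells and 3177, 7357 and 8238 UMIs in γ cells.

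Clusters made without rn gathered many of these cells. In library 3, the 130-cell cluster was 9.9% of α/β cells and held 95.7% of their rn UMIs, at 2437 CPM, while the other α/β clusters were at 4.1 and 23.7 CPM. At a finer resolution (0.6) library 3 had a cluster of 110 α/β cells at 2696 CPM and a cluster of 20 glia-like cells. In library 1 the finer resolution gave a cluster of 104 α/β cells at 3174 CPM with 55.2% of the rn UMIs of α/β cells. The other α/β clusters of library 1 stayed at 180 and 718 CPM, so there the gathering was partial. After rn, the leading genes of both clusters began with CG43795, Apoltp and CG9008. In library 2 all α/β cells stayed in 1 cluster at both resolutions.

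The rn-high cells also differed in other members. The level of prt was 2012, 1634 and 1644 CPM in α/β cells with at least 5 rn UMIs, against 555, 471 and 432 CPM in α/β cells with none. That is 3.63, 3.47 and 3.81 times higher, a log2 ratio of 1.86 ± 0.07 (SD, n = 3 libraries), and the intervals were apart in each library. So prt in rn-high α/β cells was above the γ level, although the α/β average was below it. The level of ey ran the other way, at 583, 501 and 546 CPM against 767, 654 and 739 CPM, or a log2 ratio of -0.41 ± 0.03 with the intervals apart in 3 of 3 libraries. The ratio of toy was -0.04 ± 0.03, that of Mef2 -0.10 ± 0.03, that of dac 0.14 ± 0.12 and that of mub -0.14 ± 0.16, with the mub intervals apart in library 1 alone. For toy the intervals overlapped in every library. These cells were picked by rn after its counts were seen, so the ratios are a description with no test. They were also deeper, with median UMIs of 4456, 6757 and 7950 against 3370, 5389 and 6026, and the part of depth was not tested.

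**Figure D3:**
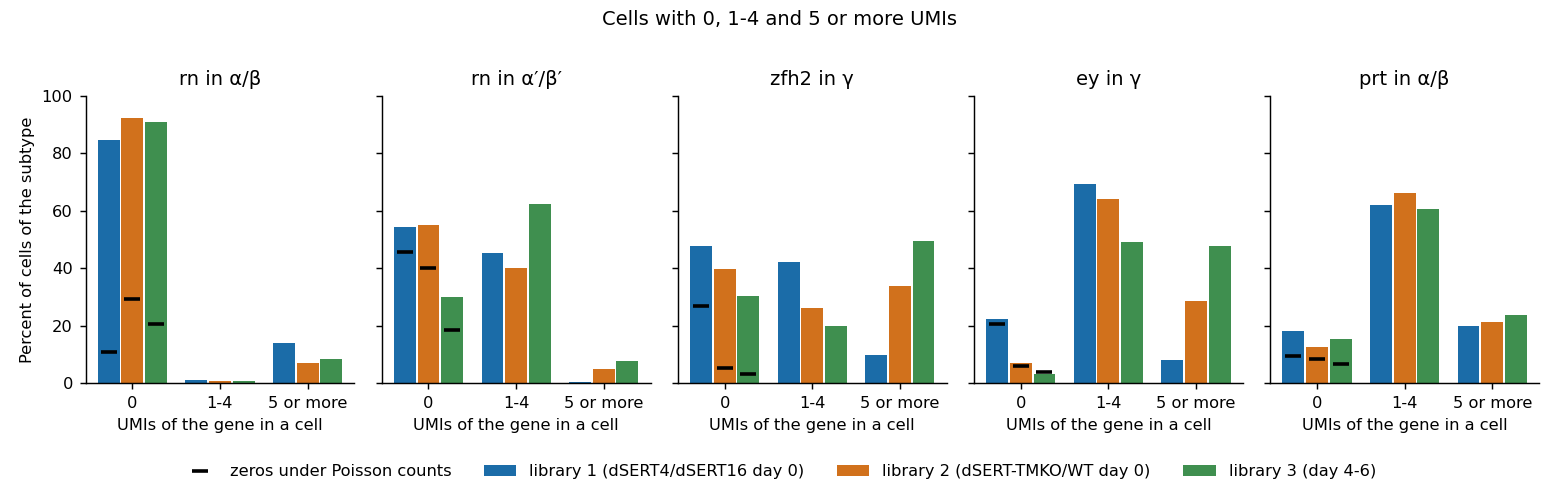
Percent of cells with 0, 1 to 4 and 5 or more UMIs of a gene, by library, with black marks for the percent at 0 under Poisson counts at the class level. In α/β cells rn is nearly all or none (84.8 to 92.3% at 0). In α′/β′ cells 54.2%, 55.2% and 29.9% are at 0, and most cells that hold any rn have 1 to 4 UMIs. In γ cells zfh2 has more zeros than the marks, and ey sits near them.

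**Figure D4:**
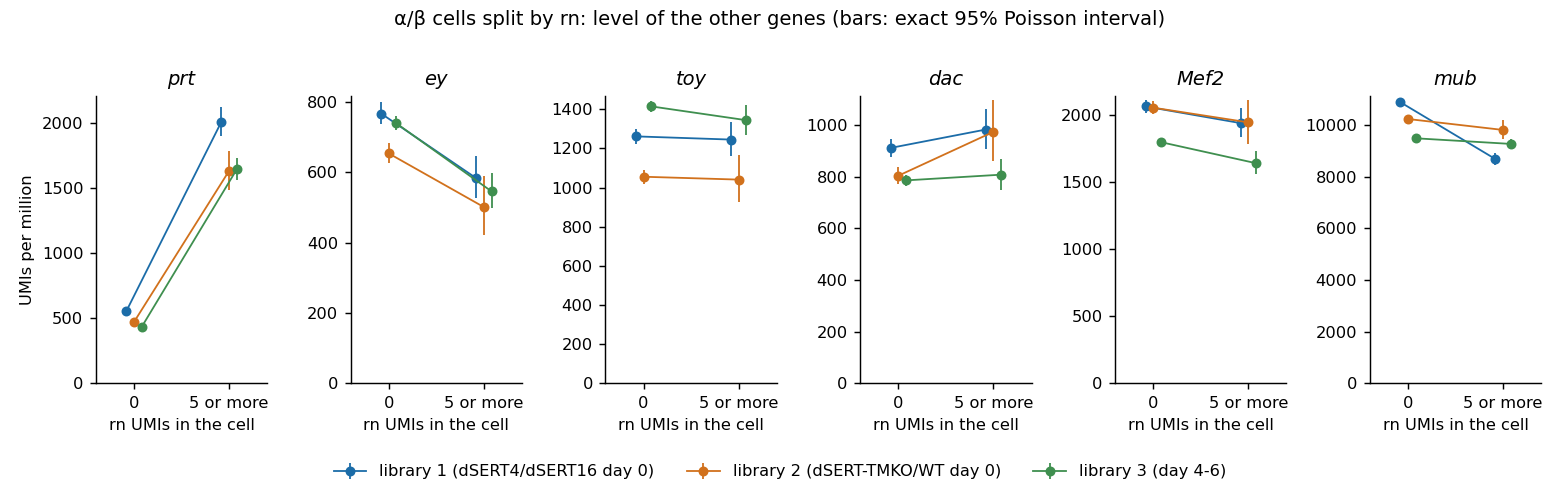
Level in CPM of 6 genes in α/β cells with 0 and with 5 or more rn UMIs, 1 line per library, with exact 95% Poisson intervals. The level of prt rises from 432 to 555 up to 1634 to 2012, ey falls in all 3 libraries, and toy is nearly flat.

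In γ cells zfh2 was uneven too. It was at 0 in 47.9% (interval 45.6 to 50.2%), 39.7% (37.2 to 42.3%) and 30.4% (28.0 to 32.8%) of γ cells, where Poisson counts would give 26.9%, 5.29% and 3.09%. For ey in the same cells the observed shares at 0 were 22.4%, 7.15% and 3.07%, beside 20.8%, 6.06% and 4.09% under Poisson counts. At least 5 zfh2 UMIs were found in 184, 485 and 744 γ cells. These cells held 1732, 1417 and 1321 CPM of Mef2 against 1353, 1319 and 1165 CPM in γ cells with no zfh2, a log2 ratio of 0.21 ± 0.13 (SD, n = 3). The ratio of mub was 0.18 ± 0.04, with the intervals, which cover counting error only, apart in 3 of 3 libraries. It was -0.16 ± 0.08 for prt, 0.04 ± 0.08 for dac, 0.03 ± 0.06 for ey and 0.04 ± 0.05 for toy. Here also the cells were chosen by the counts, and no test was made. Those with at least 5 zfh2 UMIs were deeper too. Their median UMIs were 4643, 8109 and 8982.5, against 2888, 7081 and 7665 in γ cells with none, and the part of depth was not tested.

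Among γ clusters, zfh2, Mef2 and mub were low together. In library 3 a cluster of 316 γ cells with kek5 and hec as its leading genes and danr among them held 432 CPM of zfh2 and 845 CPM of Mef2. The γ cluster with most cells, 1039, held 729 CPM of zfh2 and 1351 CPM of Mef2, and a γ cluster of 144 cells led by mitochondrial genes held 966 and 1622 CPM. In the clusters of 316 and 1039 cells mub was at 8683 and 10755 CPM, ey was at 610 and 576 CPM and toy at 1204 and 1235 CPM. The cluster of 144 cells was above both in these genes as well, with mub at 13114.5 CPM, ey at 791 CPM and toy at 1454 CPM. At the finer resolution library 1 had a γ cluster of 223 cells with hec, danr and kek5 among its leading genes. It held 190 CPM of zfh2 and 1166 CPM of Mef2, whereas the 3 other γ clusters held 461 to 470 CPM of zfh2 and 1434 to 1619 CPM of Mef2. Its mub level was 7677 CPM, against 9483 to 10927 CPM. In library 2 a γ cluster of 268 cells at that resolution held 385 CPM of zfh2 and 871 CPM of Mef2, against 508 and 1401 CPM in the other. There mub (6449 and 11128 CPM), dac (292 and 478 CPM), ey (372 and 479 CPM) and toy (781 and 970 CPM) were lower too.

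Outside the KCs, other neurons are the nearest comparison, and libraries 1 and 2 held at least 50 of them. With only these 2 libraries the edgeR fit had 1 residual degree of freedom, so its p-values lean on the spread estimated over all genes. Of the 8 genes, 7 were called, all higher in KCs, against 23.3% of the 7546 genes tested. The level of prt was 914 and 801 CPM in KCs and 170 and 24.6 CPM in other neurons, or 5.38 and 32.5 times higher (adjusted p = 0.00203). At resolution 0.6, which left 89 of the 113 other neurons of library 1, its level there was 25.0 CPM and the fold 36.5, and ey fell from 168 to 110 CPM. The level of ey was 619 and 513 CPM against 168 and 64.0 CPM (adjusted p = 5.9e-04). The level of mub was 9958 and 10255 CPM against 1912 and 1250 CPM (adjusted p = 5.7e-04). The genes toy (1134 and 969 against 774 and 301 CPM, adjusted p = 0.0176) and dac (635 and 541 against 394 and 123 CPM, adjusted p = 0.0118) differed less. For zfh2 the KC levels were 273 and 353 CPM, against 34.8 and 213 CPM (edgeR adjusted p = 0.0267). Only γ cells, at 438 and 495 CPM, were above other neurons in both libraries. The α/β cells, at 25.3 and 16.8 CPM, were below them with intervals apart in library 2 alone. In library 1 the intervals overlapped (20.5 to 30.9 CPM in α/β cells, 24.4 to 48.1 CPM in other neurons). The α′/β′ cells, at 70.9 and 63.6 CPM, were below other neurons in library 2. Mef2 was also called, but the sort used its enhancer. The exception was rn, at 271 and 65.7 CPM in KCs and 115 and 165 CPM in other neurons, an edgeR log2 difference of 0.08 with an adjusted p of 0.933.

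Other neurons were not alike. In library 1, a cluster of 38 cells with twz and Lim1 among its leading genes held dac at 682 CPM and toy at 815 CPM, but ey at 7.0 CPM and prt at 16.3 CPM. In library 3 a cluster of 14 cells also with twz and Lim1 held dac at 1052 CPM and toy at 978 CPM, but ey at 43.5 CPM. The KC levels of libraries 1 and 3 were 635 and 632 CPM for dac, 1134 and 1305 CPM for toy, and 619 and 651 CPM for ey. The dac level was close to that of KCs in library 1, where its interval of 606 to 765 CPM held the KC level, and above it in library 3. The level of ey was far below that of KCs in both. The cluster of 75 cells with VGlut among its leading genes in library 1 held dac at 190 CPM and rn at 195 CPM, and the cluster of 51 cells with VGlut at resolution 0.6 held 93.5 and 258 CPM.

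Glia-like cells held few UMIs of most of the genes. In libraries 1 and 2 ey was at 19.2 and 1.99 CPM, dac at 20.6 and 1.13 CPM, prt at 38.3 and 3.54 CPM and rn at 5.9 and 0.359 CPM. Thinned to 1000 UMIs, 1.85% and 0.222% of glia-like cells held an ey UMI, against 42.5%, 37.7% and 43.5% of γ cells in libraries 1, 2 and 3. Without thinning these shares were 6.79% and 1.09% of glia-like cells and 77.6%, 92.9% and 96.9% of γ cells, at median depths of 3192 and 5964 UMIs and of 3177, 7357 and 8238 UMIs. Mef2 kept 224 and 118 CPM and mub 537 and 254 CPM in glia-like cells. The exception was zfh2, which ranged from 333 to 2025 CPM over the glia-like clusters of library 2. Its lowest values, 371 and 333 CPM, were in the clusters led by Nplp3 and by Obp99a.

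Genes that work beside the members were counted in fixed lists. Of 9 partners of Pax6 in eye determination, only dan, danr and hth had enough counts to be tested between subtypes. All 3 were called higher in γ than in α/β cells, with a median log2 difference of 4.86, that of danr, beside -0.01 over all genes. No dan UMI was counted in α/β cells of any library, and few of danr. The sizes of both differences, and so the median, rest on small counts. Both dan and danr were also called lower in α/β than in α′/β′ cells (danr log2 -3.90, edgeR adjusted p = 0.00285), and neither was called between γ and α′/β′ cells (adjusted p = 0.205 and 0.156). The third, hth, was called higher in γ than in α′/β′ cells (log2 0.59, edgeR adjusted p = 0.035). It was not called between α/β and α′/β′ cells (log2 -0.54, edgeR adjusted p = 0.0432). The homeobox gene hth was at 248, 236 and 373 CPM in γ and 88.2, 105 and 212 CPM in α/β cells (edgeR adjusted p = 0.00116), and at 2077 and 1899 CPM in glia-like cells. The pipsqueak-domain gene danr was at 27.2, 25.8 and 26.4 CPM in γ cells and at 1.86, 0.295 and 0.619 CPM in α/β cells. The eye partners so and eya stayed at or below 1.8 CPM in every Kenyon subtype, while ey, toy and dac were all present. Of 7 relatives of the members, only sqz, a zinc finger relative of rn, could be tested between subtypes. It was higher in γ (33.5, 36.9 and 56.3 CPM) than in α/β cells (13.6, 14.5 and 26.2 CPM, edgeR adjusted p = 1.3e-04), the reverse of rn in that comparison. Between γ and α′/β′ cells sqz was not called (log2 0.11, edgeR adjusted p = 0.63).

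Of 12 other transcription regulators of the mushroom body, 10 could be tested between γ and α/β cells. Of these, ab and mamo were among the markers that named γ cells and are no result. Of the other 8, 7 were called, all lower in γ, beside 11.8% of all genes. The hormone-induced factor Eip93F was at 1154, 866 and 953 CPM in γ and 6774, 5093 and 5891 CPM in α/β cells (edgeR adjusted p = 9.6e-07). The homeobox gene pros was at 3822, 3582 and 4373 CPM in γ and 11559, 15363 and 19910 CPM in α/β cells (adjusted p = 1.4e-04). The ecdysone receptor EcR was lower in γ cells as well (log2 -1.14, adjusted p = 3.3e-05), and chinmo, a factor of early neuronal identity, was lowest in γ and highest in α′/β′ cells, at 389, 362 and 334 CPM and 1929, 1221 and 1624 CPM. The median log2 difference of the other 8 was -1.55, beside -0.01 over all genes.

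Beside prt, the classical vesicular transporters were even across subtypes. The acetylcholine transporter VAChT was at 925, 979 and 668 CPM in γ and 932, 994 and 653 CPM in α/β cells, and neither it nor VGAT was called in any subtype comparison. Only these 2 of 4 could be tested there. Neither VAChT nor VGAT was called between KCs and other neurons. The glutamate and monoamine transporters VGlut (log2 -9.35, edgeR adjusted p = 4.0e-06) and Vmat (-7.16, adjusted p = 7.6e-04) were called lower in KCs. VGlut, Vmat and VGAT were on a list of transmitter markers, but the class of other neurons was named from general neuron markers. Beside mub, 5 of 6 RNA-binding proteins were in the feature list and were tested. Between γ and α/β cells Imp and Fmr1 were called higher and Syp lower in γ. Imp, which with Syp sets temporal identity in neural stem cells, was at 2001, 1703 and 2067 CPM in γ and 58.6, 5.91 and 12.1 CPM in α/β cells. Syp was at 249, 241 and 322 CPM in γ and 395, 433 and 735 CPM in α/β cells.

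The genes most like each member were found by Pearson's r of log2(CPM + 1) over 14 points, the 5 cell classes in each library that held them. The points share libraries and are dominated by the step from KCs to glia-like cells, so r is a description. The gene nearest to ey was rut, an adenylate cyclase gene of memory and 1 of the markers that named KCs, with r = 0.98, and the gene nearest to toy was Gfrl (r = 0.99). For dac the nearest were Octbeta1R (r = 0.99) and then toy itself (r = 0.99), the only member among the 3 genes nearest to another. For mub it was the nuclear receptor gene Hr51 (r = 0.99), for prt Rgk1 (r = 0.99), for Mef2 CG10257 (r = 0.97) and for zfh2 hts (r = 0.94). For rn it was DIP-kappa, a cell-surface immunoglobulin gene (r = 0.99), followed by beat-VII (r = 0.96). Over the 9 Kenyon sums alone DIP-kappa again came first for rn (r = 0.99).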

How the data were processed

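The authors deposited 1 matrix of UMI counts per library, not normalized, from Cell Ranger 7.0.0 and 10x Genomics transcript-end libraries. Barcodes under 1000 UMIs or over 20% mitochondrial UMIs were dropped. Scrublet in scanpy 1.11.5 marked 0.152%, 3.68% and 0.868% of cells as doublets, which were removed. Each library was clustered alone (2000 variable genes without the 8 members, 10 principal components, 20 neighbours, Leiden resolution 0.3). A marker counted as detected at a UMI in 25% of cells and at 50% (Kenyon, neuron) or 25% (glia, subtype) of its highest cluster's CPM. Kenyon-like clusters needed 4 Kenyon markers, other neurons 4 neuron markers, glia-like clusters 3 glial markers and subtypes 3 markers of their list. The γ and α′/β′ lists share trio and mamo. These cut-offs were set after the clusters had been seen, and the members, gene lists and tests were chosen with earlier results of these data known. Counts were summed per library and class and tested in edgeR 4.0.16, checked on simulated counts, with DESeq2 1.42.0 as an alternative. P-values measure the spread between 3 libraries of different age and genotype, and subtypes are clusters of the same cells. The text names all 8 members, genes of the fixed lists and the genes most like each member among those with a mean of at least 10 CPM.

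The 4 deposited tables hold only the authors' own comparisons of genotype or drug by gene and cluster (fold changes, p-values), and none of their values was used.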

Additional observations from a re-analysis of the deposited data

Results flagged for a closer look

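The difference of mub between γ and α/β cells turned between libraries. The log2 ratio of γ over α/β was -0.074 in library 1, 0.046 in library 2 and 0.15 in library 3, with intervals that do not overlap within each library. These intervals cover counting error only. Over single γ and α/β cells the variance of mub was 4.77 to 9.75 times that of Poisson counts. The difference between libraries was not tested. The difference of rn between KCs and other neurons turned as well, with a log2 ratio of KCs over other neurons of 1.24 in library 1 and -1.33 in library 2. It was not tested either. In library 1 the α/β share of KCs and the rn-high share of α/β cells were both above those of library 2 (951 of 3019 and 607 of 2179 KCs, 14.1% and 7.08% of α/β cells), and their part in the turn was not tested.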

How the results depend on the processing

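Alternatives were run for the 4 comparisons and for the levels and shares. Leaving out the clusters with mitochondrial or glial leading genes, and the 10% mitochondrial maximum in the tests, were chosen after seeing the data. The number of members called stayed within 1.5 times in all but 1 setting, and with 1 library left out it was 3 between γ and α/β, 4 between γ and α′/β′ and 2 to 4 between α/β and α′/β′ cells. With cells assigned 1 by 1 from marker UMIs, 2 members (Mef2 and rn) rather than 4 were called between γ and α′/β′ cells, zfh2 and prt being lost, where 222 rather than 761 of all genes were called. That assignment used trio and mamo for both subtypes, and 59.2%, 43.3% and 31.2% of cells assigned to α′/β′ were in α′/β′ clusters. Without library 1 the comparison of γ and α′/β′ cells called 368 genes, and DESeq2 called 1138 rather than 1757 genes between KCs and other neurons. The share of α/β rn UMIs in the cluster with most fell from 71.5% to 55.2% in library 1 at resolution 0.6. Near 0, signs turned for mub between γ and α/β cells (-0.0010 to 0.107 with 1 library left out, the lowest without library 3, and -0.0068 without mitochondrial clusters). They turned for dac between γ and α′/β′ cells (-0.0065 to 0.0871 with 1 library left out, the lowest without library 3, -0.0073 at a minimum of 2000 UMIs, -0.0043 with members among the variable genes, -0.022 without mitochondrial clusters and -0.0042 at the 10% maximum), and for rn between KCs and other neurons (-0.015 at resolution 0.6). Between α/β and α′/β′ cells, zfh2 (log2 -1.09, adjusted p = 0.0611 in edgeR) was called without library 3 (-1.59, adjusted p = 0.00143) and prt without library 2 (0.61, adjusted p = 0.0155). Of the members' differences under all alternatives, 326 kept direction and call, 10 gained a call, 8 lost one and 8 changed sign. The causes were not tested. Ratios of rn over γ cells rest on small counts, since 6 to 23 rn UMIs were counted there. Between KCs and other neurons, leaving out a library (no residual degrees of freedom), members among the variable genes and clusters of at least 100 cells (1 library or fewer cells than needed) were not run.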
